A study of Arabidopsis thaliana with 2 samples.

Results

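HRA1 (AT3G10040), HRU1 (AT3G03270), CML38 (AT1G76650) and WIP4 (AT4G10270) are genes of Arabidopsis thaliana that are known from the response of plants to low oxygen. They were taken by locus, from probe sets that the array annotation pairs with exactly 1 gene. All 4 loci were found, each with 1 probe set, among 13356 genes with such a probe set.

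The cells were protoplasts, cells freed of their walls, from leaf mesophyll, the photosynthetic ground tissue of the leaf. Cells of the hypoxia sample were kept submerged for 6 h, 25 mm deep in 2 ml of mannitol buffer in a 15 ml tube. Cells of the control sample were kept for 6 h as a layer of 0.6 mm, with 10 ml of mannitol buffer in a dish of 150 mm. Both held the same number of cells from 1 pool of leaves of 36 plants, and both stood in light of 80 microeinstein, so vessel and cell density changed together with oxygen and cannot be told apart from it. The labels give no genotype beyond the species, no transgene and no further agent. The aim of the series was to find genes that low oxygen induces in mesophyll cells. There was 1 array for hypoxia and 1 for control, so no value below has a replicate check and no test between the groups was possible.

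When oxygen runs short, plants stabilise transcription factors of group VII of the ethylene response factor family, which oxygen otherwise marks for degradation. These factors switch on a core set of genes for fermentation and for adjustment to low energy. HRA1, a transcription factor of the trihelix family, is a product of that response which restrains it, by binding the group VII factor RAP2.12. HRU1 is a universal stress protein that has been tied to the small GTPase ROP2 and the NADPH oxidase RBOHD, which makes reactive oxygen species. CML38 is a calmodulin-like calcium sensor found in RNA granules of hypoxic cells, and its gene also answers to wounding. WIP4 belongs to a family of small wound-responsive peptides.

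All 4 genes were higher in hypoxia. HRA1, HRU1 and WIP4 gave low signals on the control array and clear ones on the hypoxia array, while CML38 already had a strong signal in control and a stronger one in hypoxia. HRA1 had a probe set intensity of 1099.3 in hypoxia, against 26.3 in control. HRU1 had 2524.3 in hypoxia and 87.4 in control. WIP4 had 2632.3 in hypoxia and 3.4 in control. The 3 control values lay under the floor, an intensity of 165.7 after scaling, below which a value was not taken as signal and was set to the floor. CML38 had 13528.2 in hypoxia and 3558.4 in control, both far above that floor.

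**Figure D1:**
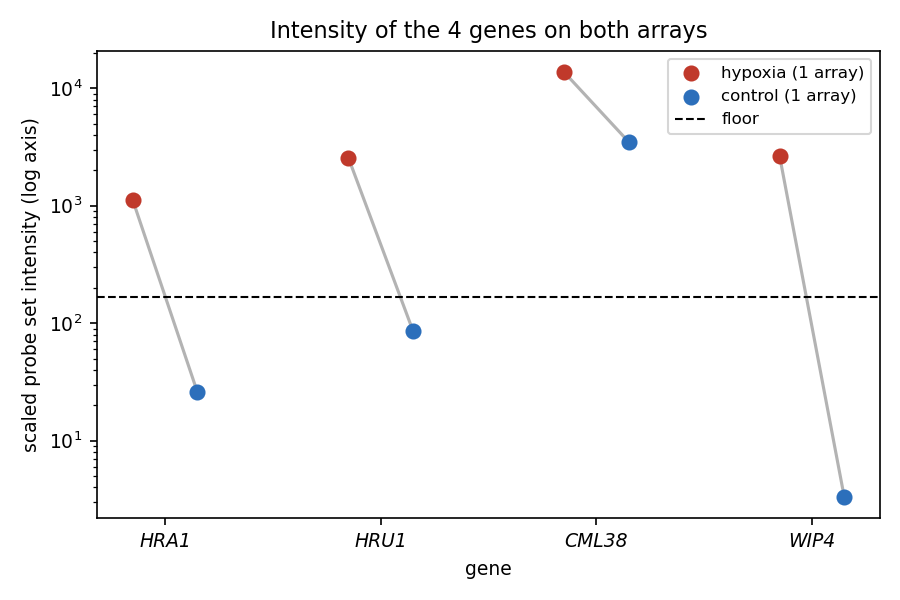
Probe set intensity, scaled and on a log axis, of HRA1, HRU1, CML38 and WIP4 on the hypoxia array (red, left) and the control array (blue, right), with 1 point per array and the floor of 165.7 as a dashed line. HRA1, HRU1 and WIP4 cross the floor between the arrays, and CML38 lies above it on both.

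CML38 was the only member of the 4 with a ratio measured on both sides. Its log2 ratio of hypoxia over control was 1.97, which is 3.93-fold. Among the 6648 genes above the floor on both arrays, 189 had a higher ratio, and 12.7% were at least 2-fold higher. Probe noise was read from 74 genes with a pair of probe sets, all above the floor, where the log2 ratio of a single probe set had an SD of 0.34. That spread covers the difference between probes within these arrays and not the difference between cell samples.

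For the other 3 genes the ratio is a lower limit, taken against the floor. WIP4 was at least 16.1-fold higher in hypoxia, HRU1 at least 15.5-fold and HRA1 at least 6.74-fold. Limits of this kind do not rank the changes, since each depends on how far the hypoxia signal lay above a common floor. These genes were counted as measured only through the hypoxia array, so a difference in this direction was built into their being measured. By this count all 4 genes were at least 2-fold higher, beside 13.0% of the 7973 genes measured on at least 1 array. Of those 7973 genes, 14.5% were at least 2-fold lower. Of the 937 genes at the floor in control alone, 20.6% had a limit of at least 2-fold, 4.48% of at least 4-fold, which HRA1 passed, and 1.28% of at least 8-fold, which HRU1 and WIP4 passed.

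**Figure D2:**
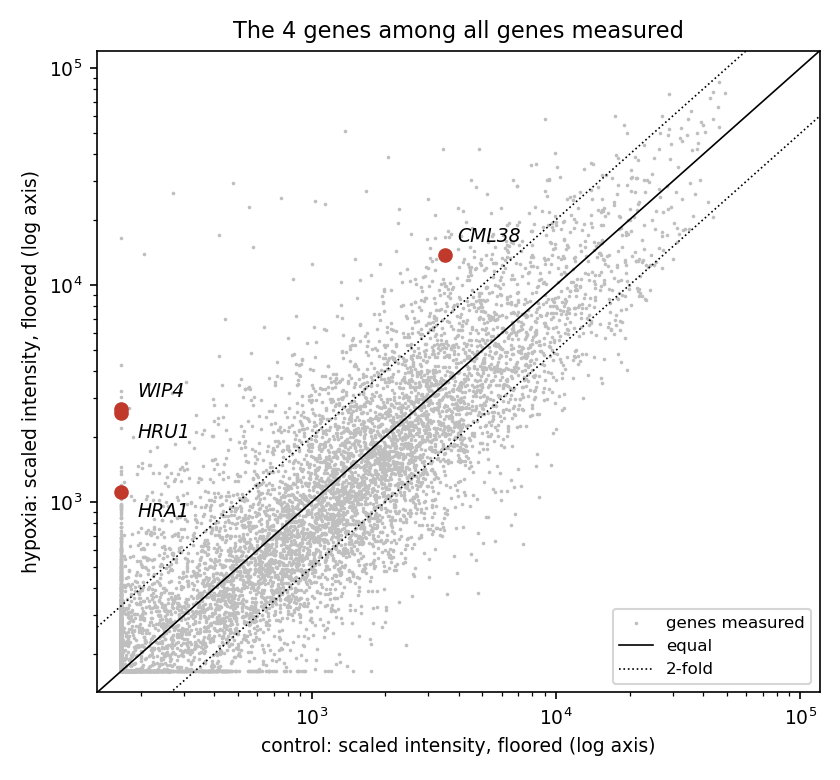
Scaled intensity in hypoxia (vertical) against control (horizontal), both on log axes and with values under the floor set to it, for the 7973 genes measured (grey) and the 4 genes (red); the solid line marks equal intensity and the dotted lines a 2-fold difference. CML38 lies inside the field of genes measured on both arrays, at 3.93-fold, while WIP4, HRU1 and HRA1 stand on the left edge where control is at the floor.

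The size of these limits moved with the floor. With a lower floor, at the 20th percentile or an intensity of 46.3, HRU1 was above it on both arrays and its log2 ratio was 4.90, or 29.8-fold. WIP4 was then at least 57.7-fold and HRA1 at least 24.1-fold higher. With a higher floor, at the 60th percentile or an intensity of 674, HRU1 was at least 3.80-fold and WIP4 at least 3.97-fold higher, and HRA1 was at least 1.66-fold higher, a limit that no longer passes 2-fold. CML38 kept 3.93-fold under each of the 3 floors, as it had to, since both its intensities lay above all of them. The scaling of the arrays moved CML38 instead, to 5.98-fold when the arrays were centred on reference genes and to 2.77-fold with centring on the hybridisation controls. The reference gene centring rests on the median of few genes, as 3 of 7 listed were measured. Their log2 ratios in the main setting differed, at -0.03 for UBC21, -0.61 for TIP41 and -0.91 for SAND. Each of the 4 genes was higher in hypoxia in all 12 alternatives tried, and HRU1, CML38 and WIP4 were at least 2-fold higher in all 12. Of these, 3 could not change their values, since each gene has 1 probe set, unmarked and measured. Where control was set to a floor, the ratios of HRA1, HRU1 and WIP4 could not fall below 0, so their direction was fixed beforehand.

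**Figure D3:**
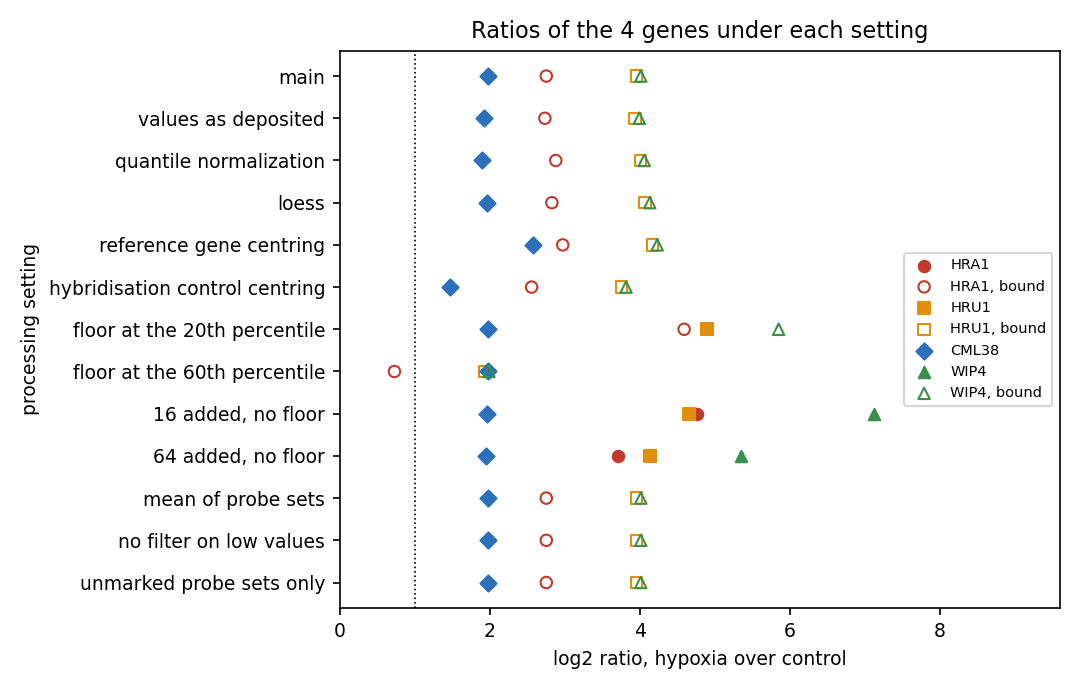
The log2 ratio of hypoxia over control (horizontal) of HRA1, HRU1, CML38 and WIP4 under each processing setting (vertical); open symbols are lower limits against a floor, filled symbols are ratios (also where a constant was added in place of a floor), and the dotted line marks 2-fold. CML38 ranges from 1.47 to 2.58, and HRA1 lies left of the dotted line only under the 60th percentile floor.

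The scaling and the floor also set how the genes of the whole array were split. The 20th percentile floor left the scaling as it was and raised the number of genes measured from 7973 to 11254. The share with higher values in hypoxia among genes past 2-fold was 47.3%, against 85.4% with reference gene centring, 17.7% with hybridisation control centring, 61.8% under the 20th percentile floor and 55.8% with loess. The median log2 ratio of all genes measured was -0.07, and it moved by 0.48 with reference gene centring, by -0.48 with hybridisation control centring and by 0.20 with the lower floor. The median deposited intensity was 334.2 in hypoxia and 345.2 in control. The ratio of the 3′ over the 5′ probe sets, a sign of RNA quality, was 1.39 in hypoxia and 1.33 in control for actin, 0.951 in hypoxia and 0.954 in control for glyceraldehyde phosphate dehydrogenase, and 1.39 in hypoxia and 1.42 in control for ubiquitin. Of the mesophyll markers, 4 of 8 had a single-gene probe set, all above the floor on both arrays, with summed intensities of 107953 in hypoxia and 63117 in control. Of the guard cell markers 2 of 4 did, with sums of 503 and 328, GC1 being at the floor in control. Of the phloem markers only SWEET11 did, 1 of 4, with an intensity of 1020 in hypoxia and 212 in control, and of the epidermis markers 0 of 4. The part of these shifts in the values of HRA1, HRU1, CML38 and WIP4 was not tested. In such samples of many cells, more RNA per cell and more cells with the transcript cannot be told apart.

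Among the trihelix transcription factors other than HRA1, few genes were past 2-fold, and these were all higher in hypoxia. This list and those below were chosen with earlier results of these data known. Of 26 other family genes listed, 17 had a single-gene probe set and 13 were measured. Past 2-fold were 3 of the 13, all higher in hypoxia, beside 13.0% at least 2-fold higher among all genes measured. The 13 had a median log2 ratio of 0.51, against -0.07 over all genes measured. GT3a, the gene AT5G01380, had an intensity of 3120.6 in hypoxia and 820.6 in control, a ratio of 3.93-fold. GT2 had 1913 in hypoxia and 869.3 in control, a ratio of 2.27-fold. The count of 3 went to 7 with reference gene centring and to 1 with hybridisation control centring. Over all genes measured, the count of 1037 at least 2-fold higher went to 2059 and to 528 with these.

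Among the universal stress proteins other than HRU1, the share at least 2-fold higher was near that of the whole array. Of 23 others listed, 21 had a single-gene probe set and 15 were measured, all of them above the floor on both arrays. Past 2-fold were 2 of the 15, both higher in hypoxia, beside 12.7% at least 2-fold higher among all genes above the floor on both arrays. Of all genes measured on at least 1 array, 14.5% were at least 2-fold lower. AT3G11930 had 1437 in hypoxia and 198.5 in control, a log2 ratio of 2.90. AT3G62550 had 1002.1 in hypoxia and 228.7 in control, a log2 ratio of 2.18. The median log2 ratio of the 15 was 0.17, against -0.17 over all genes above the floor on both arrays. Of the 15 ratios, 10 were above 0. The count of 2 went to 6 with reference gene centring and to 1 under the 60th percentile floor. In these settings 2059 of 8175 and 632 of 5226 of all genes measured were at least 2-fold higher.

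The calmodulin and calmodulin-like genes, which encode calcium sensors, lay on both sides of 0. Apart from CML38, 34 of 56 listed genes had a single-gene probe set and 21 were measured, with 4 past 2-fold upwards and 3 downwards. Over all genes measured the shares were 13.0% upwards and 14.5% downwards, so the downward count was near that of the array. Their median log2 ratio was -0.002. CML37, a close relative of CML38, had 12916 in hypoxia and 1531.9 in control, a log2 ratio of 3.12, or 8.71-fold. CML39, another close relative and the gene next to CML38 in the RefSeq order, had 218.6 in hypoxia and 4.6 in control. Its signal in hypoxia was little above the floor, so its limit was 1.34-fold, and at least 4.79-fold under the 20th percentile floor. Whether CML39 differed less than CML37 and CML38 therefore cannot be read from these values.

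Further calmodulin-like genes past 2-fold, named after their values were seen, were CML42 at 1.93, CML44 at 1.31 and CML10 at 1.35 on the log2 ratio scale. At the other end, CML36 was at the floor in hypoxia, with 152 there and 696.1 in control, and was at least 4-fold lower, with a log2 limit of -2.05. CML41 and CML47, also chosen after their values were seen, had log2 ratios of -1.47 and -1.36. The split of 4 higher and 3 lower depended on the scaling. It was 8 and 1 with reference gene centring and 2 and 6 with hybridisation control centring. The whole array moved the same way, with 2059 higher and 352 lower of 8175 genes measured under reference gene centring. Under hybridisation control centring it had 528 higher and 2455 lower of 7917.

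The 4 wound-responsive peptide genes that were measured, of 8 listed, were higher in hypoxia. Apart from WIP4, 3 of 7 listed genes had a single-gene probe set, and all 3 were measured and at least 2-fold higher, in the main setting and in all 12 alternatives. The share over all genes measured was 13.0% in the main setting. WIP2, the gene AT4G05070, had 10398.9 in hypoxia and 1599.7 in control, a log2 ratio of 2.75, or 6.71-fold. AT4G28240 had 1427.4 in hypoxia and 300.8 in control, a log2 ratio of 2.29. AT4G33560 had 4192.9 in hypoxia and 41.6 in control, at the floor there, and was at least 25.7-fold higher. This gene is also on the core hypoxia response list and is counted again there. WIP2 and AT4G28240 were above the floor on both arrays, so their ratios, unlike those of WIP4 and AT4G33560, are not limits. The probe set of WIP4 carries no mark for shared transcripts, but whether it also binds transcripts of the other family genes was not tested.

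**Figure D4:**
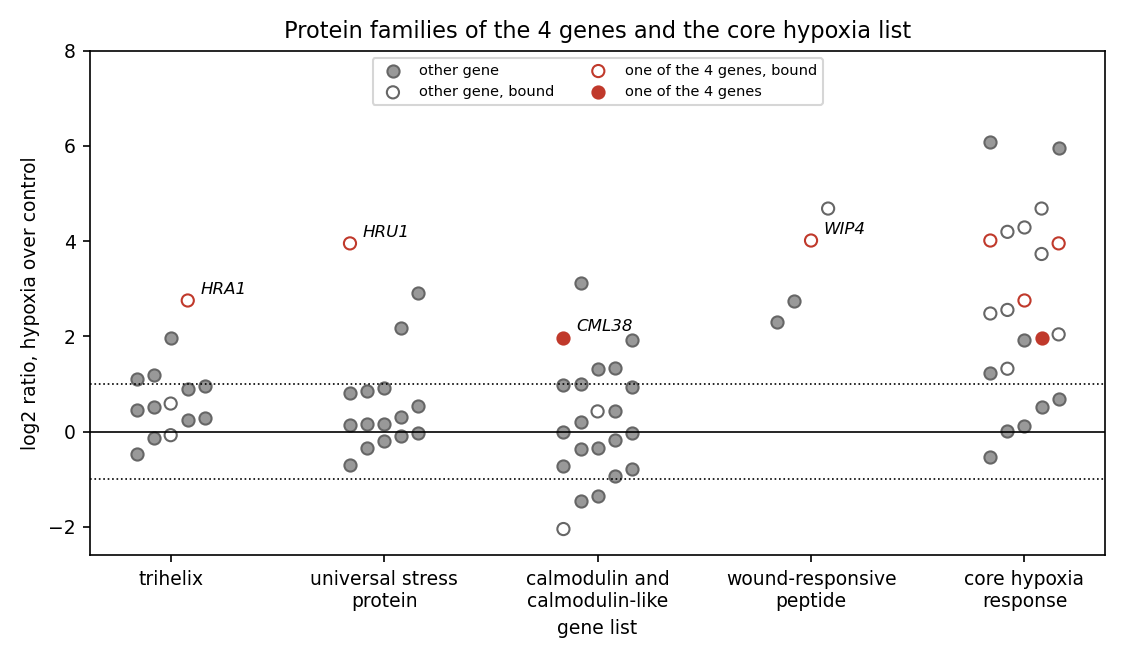
Log2 ratio of hypoxia over control (vertical) for every measured gene of the protein families of HRA1, HRU1, CML38 and WIP4 and of the core hypoxia list (horizontal); the 4 genes are red, open circles are limits with 1 array at the floor, and dotted lines mark a 2-fold difference. The calmodulin genes lie on both sides of 0, and the wound-responsive genes all lie above the upper dotted line.

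The response to touch and wounding, for which CML38 and WIP4 are also known, was measured for 4 of 17 listed genes, none of them among the 4 studied here. CML37 was at least 2-fold higher, ZAT10 and WRKY53 lay within 2-fold, and CML39 had only the limit given above. ZAT10, a zinc finger transcription factor of many stress responses, had 29875.4 in hypoxia and 23295 in control, a log2 ratio of 0.41. WRKY53, a transcription factor of senescence and defence, had 295 in hypoxia and 572.9 in control, a log2 ratio of -0.91. With CML39 set at its log2 limit of 0.42, the median was 0.41, and most of the listed wound genes were not analysed here.

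The core hypoxia response list holds all 4 genes. Without them, 20 of 46 listed genes had a single-gene probe set and 17 were measured, with 12 past 2-fold, each higher in hypoxia, beside 13.0% among all genes measured. In 8 of the 17 control was at the floor, as it was for HRA1, HRU1 and WIP4, and of all genes in that state 20.6% had a limit of at least 2-fold. For the 9 above the floor on both arrays, as CML38 was, 4 were past 2-fold, beside 12.7% of all genes in that state. Their median log2 ratio was 0.68, against -0.17 over all genes above the floor on both arrays. AT1G33055, a hypoxia-responsive gene of unknown function, had a log2 ratio of 6.08, and HUP54, another, had 5.95. With CML38 at 1.97, the ratios of core genes measured on both sides thus ran from 6.08 down to -0.53 for PDC2, a pyruvate decarboxylase gene named after its values were seen. Under the 60th percentile floor 7 of these genes were at least 2-fold higher, beside 632 of all 5226 genes measured there.

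The partners and regulators of the 4 genes were mostly not analysed here. Of 17 genes of oxygen sensing and of the group VII factors, which include RAP2.12, 0 had a single-gene probe set. For HRU1, 1 of 8 ROP and NADPH oxidase genes was measured, ROPGAP4, which encodes a protein that switches ROP GTPases off. It had 217.6 in hypoxia and 367.7 in control, a log2 ratio of -0.71. For CML38, 1 of 10 genes of RNA granules was measured, UBP1C, an RNA-binding protein gene, with 4546.5 in hypoxia and 5948.2 in control, a log2 ratio of -0.34. Both lay within 2-fold.

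Genes next to the 4 on the chromosomes, chosen as 2 protein-coding genes on each side in the RefSeq annotation of assembly TAIR10.1, did not share one pattern. This comparison was added after the data had been seen. Of 16 such neighbours, 8 had a single-gene probe set and 7 were measured, with 2 past 2-fold, both higher in hypoxia and both near HRA1. The share over all genes measured was 13.0%, and 7 genes are too few to set the count apart from it. AT3G10020, which is HUP26, a hypoxia-responsive gene of unknown function, had 22394.1 in hypoxia and 563.5 in control, a log2 ratio of 5.36. AT3G10060, on the other side of HRA1, had 2870.6 in hypoxia and 1245.9 in control, a log2 ratio of 1.25. Between HUP26 and HRA1 stood AT3G10030, itself a trihelix gene, with 1513.7 in hypoxia and 1139.4 in control and a log2 ratio of 0.46. HRA1 thus had a strongly higher gene and a family gene within 2-fold on the same side.

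Around CML38, besides CML39, AT1G76630 had a log2 ratio of -0.74 and AT1G76660 one of -0.21. Near WIP4, AT4G10280 had 273.6 in hypoxia and 393.3 in control, a log2 ratio of -0.48, and AT4G10260 was under the floor on both arrays. AT4G10265, a wound-responsive gene directly beside WIP4, and all 4 neighbours of HRU1 were not analysed here.

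The genes whose pair of intensities was most like each member were found by the distance between log2 intensities over the 2 arrays, with values under the floor set to it. Such a likeness rests on at most 2 numbers and on probes of different brightness, and it is a description. For CML38 these were AT2G32190 at a distance of 0.06, the plastid gene rpoA, which encodes a subunit of the plastid RNA polymerase, at 0.09, and AT5G51440, the mitochondrial small heat shock gene HSP23.5, at 0.13. For HRU1 they were HSP22, the gene AT4G10250, at 0.05, HSA32, a heat stress-associated gene, at 0.07, and AT4G39675 at 0.22. HSP22 and HSA32 were also the nearest for WIP4, at 0.01 and 0.13, followed by AT3G29970 at 0.18. For HRA1 they were AT2G23110 at 0.004, AT5G28430 at 0.06 and LCR67, a defensin gene, at 0.10. The genes nearest to HRU1, WIP4 and HRA1 were at the floor in control, as the rule required. Their distances therefore compare the hypoxia signal alone. AT4G39675 and AT3G29970 are also on the core hypoxia list.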

How the data were processed

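Total RNA of 2 samples was hybridised to 1 Affymetrix expression array each, per the labels' protocols. The deposited values are probe set intensities on a linear scale. The software was GCOS 1.0, per the submitters' processing notes. Settings and genome build are not given in the sources used here. The deposited columns had a mean of 1500.1 each without their lowest and highest 2%, so the authors had set both arrays to a common level.

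Intensities are printed as deposited. For ratios, both arrays were brought to 1 median, the geometric mean of their own, over 22746 probe sets without the 64 controls. Values under a floor at the 40th percentile of both arrays together were set to it, and log2 ratios of hypoxia over control were taken. Detection calls were not used. A platform annotation pairs 13513 probe sets with 1 gene, 503 with several and 8730 with none, and 13436 of the first matched a RefSeq locus (TAIR10.1). Where a gene had more than 1 probe set, the brightest was used. A gene was measured when above the floor on at least 1 array.

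With 1 array per group no test was made, and counts at 2-fold describe these arrays. The 4 genes and all lists were chosen with earlier results of these data known. Genes are named by a rule: the members, the 3 nearest in intensity, the genes next to a member in ratio, and in each list the 3 largest ratios or all of up to 6. Others are marked as such. The alternatives changed scaling, floor, added constant, filter and probe set choice 1 at a time. Calculations used Python 3.11.15, with loess from statsmodels 0.14.6, and were checked on simulated data.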

Additional observations from a re-analysis of the deposited data

Results flagged for a closer look

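Probe sets without a single gene name entered no comparison. Of 6680 measured, 54 had a ratio of 8-fold or more towards hypoxia, which is 0.81%, and 14 one of 8-fold or more towards control. The exact share at 8-fold over all genes with a single-gene probe set was not taken. Among the 7973 of them measured, HRU1 ranked 21 from the top at a limit of 15.5-fold. HRA1 ranked 64 at a limit of 6.74-fold, so the count at 8-fold lay between these ranks. Of the 54, 41 were above the floor on both arrays. Whether any of them belongs to the low-oxygen regulators or to their families was not tested.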

How the results depend on the processing

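No paired analysis was possible because each group has 1 array, so that the shared replicate number gives a single pair. No direction of HRA1, HRU1, CML38 or WIP4 was reversed in the 12 alternatives. For HRA1, HRU1 and WIP4 a reversal was not possible wherever control was set to the floor. A ratio was counted as moved when it changed by more than the probe set SD of 0.34. The log2 ratio of CML38 moved to 2.58 with reference gene centring and 1.47 with hybridisation control centring. With the floor at the 20th percentile HRA1, HRU1 and WIP4 were at 4.59, 4.90 and 5.85, and at the 60th at 0.73, 1.93 and 1.99, all lower limits except HRU1 at the 20th. With 16 added in place of a floor they were at 4.76, 4.66 and 7.12, and with 64 added HRA1 was at 3.72 and WIP4 at 5.35. These shifts follow from how each setting treats low control values. The counts of genes at least 2-fold higher and lower, 1037 and 1156, went to 2059 and 352 with reference gene centring, to 528 and 2455 with hybridisation control centring, and to 632 and 686 under the 60th percentile floor. Under the 20th percentile floor 2273 were higher. Of the 20 such shifts, none came from values as deposited, quantile normalization, loess, the mean of probe sets, the missing filter or unmarked probe sets. The trihelix count of 3 higher was also 5 with quantile normalization and with loess. Without spot-level background, signals under the floor could not be measured.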
